A study of Mus musculus with 10 samples.

Results

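The genes described here encode the nuclear subunits of the mitochondrial respiratory chain and ATP synthase, the machinery of oxidative phosphorylation. They were chosen by symbol: a transcript row with a RefSeq mRNA identifier whose symbol begins with Nduf followed by a, b, c, s or v and a number, equals Sdha, Sdhb, Sdhc or Sdhd, or begins with Uqcr, Cox (numbers 4 to 8) or Atp5. This gave 84 of 23992 gene symbols, each represented by the transcript row with the most reads. They comprise 37 genes of complex I (NADH dehydrogenase), 4 of complex II (succinate dehydrogenase), 8 of complex III (cytochrome bc1), 18 of complex IV (cytochrome c oxidase) and 17 of complex V (ATP synthase). Assignment followed the symbol. Ndufa4 is therefore counted with complex I although its product is found with cytochrome c oxidase. Atp5s and Atp5sl are counted with complex V although their products are not core subunits of the enzyme, and Cox7a2l is counted with complex IV although it acts in joining complexes III and IV. The rule takes no gene encoded on the mitochondrial genome, and 0 rows of such genes were in the tables.

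The 10 RNA-seq libraries, in 4 groups, came from C57BL/6J mice and from regulatory T cells (Tregs), the Foxp3-expressing CD4 lineage that holds immune responses in check. Wild-type natural Tregs (nTregs) from spleen were cultured for 24 h with anti-CD3 and anti-CD28, which stimulate the T cell receptor (TCR, 2 libraries), or with both antibodies and thymic stromal lymphopoietin (TCR + TSLP, 2 libraries). TSLP is an epithelial cytokine whose receptor contains the product of Crlf2. Tregs from allergic lung tissue of OVA-immunized mice came from Foxp3YFP-Cre animals (lung control, 3 libraries) and from Crlf2fl/fl Foxp3YFP-Cre animals (Crlf2-deleted, 3 libraries). Both lung groups carry the Cre transgene, which is driven by Foxp3, so deletion is limited to cells that have expressed Foxp3. Neither animal age nor the number of animals behind a library is given in the sources used here. The labels leave unsaid whether replicates were separate animals or cultures, and every p-value refers to the spread between these particular libraries, and that spread may be technical.

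Reads assigned to genes numbered 27237303 to 51671887 per spleen library and 1439672 to 18349033 per lung library, and lung control 2 was the shallowest. Normalised reads of Crlf2 were 92.8, 146 and 105 in the lung controls and 9.06, 6.73 and 3.55 in the Crlf2-deleted libraries (log2 fold change -4.16, SE 0.36, adjusted p = 0.00465, edgeR quasi-likelihood test). All 8 Treg markers examined had reads in every library, at 0.185% of gene reads in lung control 3 and 0.350% to 0.444% in the other lung libraries. Lung control 3 also held more reads of B cell markers (0.0289% against 0.0014% to 0.0028%), myeloid markers (0.385% against 0.0250% to 0.102%) and CD8 T and NK cell markers (0.0442% against 0.0100% to 0.0253%). Lung controls 1 and 2 had 0.0250% and 0.0373% for myeloid markers and 0.0100% and 0.0107% for CD8 T and NK cell markers. The Crlf2-deleted libraries lay above these 2 controls, at 0.0988% to 0.102% and 0.0205% to 0.0253%. Lung epithelial marker genes took 7.53% of gene reads in lung control 1 against 0.242% to 2.15% in the other lung libraries, and erythroid markers took 9.87% in lung control 3 against 0.117% to 0.467%. All 9 epithelial and all 6 erythroid genes had reads in every lung library. In spleen both sets stayed at or below 0.0014%.

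Complexes I to IV pass electrons from NADH and succinate to oxygen, and complexes I, III and IV pump protons across the inner mitochondrial membrane. ATP synthase lets the protons return through a ring of c subunits and uses the energy to make ATP. In T cells, receptor stimulation is known to raise mitochondrial activity along with growth, and Tregs are known to depend on oxidative phosphorylation. Most of the accessory subunits are very small proteins, and their mRNAs are short. Among the 84 genes the median transcript length was 669 bp, against 2382 bp for the other mRNA rows, and 58 of the 84 were shorter than 1000 bp. This length difference bears on the results with TSLP below.

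Nuclear genes of the respiratory chain are known for promoter elements bound by NRF1, by ETS-family factors such as GABP, and by YY1. RefSeq promoter windows (build GRCm38.p6, 250 bases before to 50 after a transcription start) matched 69 of the 84 genes, with 75 windows. The core of the NRF1 motif, GCGCANGCG, searched like the others on both strands, was in 28% of these windows and in 8.58% of all 21263 windows of coding genes. The ETS motif CCGGAAG was in 21.3% against 11.6%, and the YY1 motif AAGATGGCG in 12% against 1.83%, with 0 overlaps between these last motifs in the members' windows. A match is a description of the letters and not of binding. The windows of Atp5e, whose reads fell most with TSLP, and of the 3 genes for the c subunit, whose use differed between the spleen and lung libraries, are shown here. Capitals mark the ETS motif (as its reverse complement) in Atp5e and the NRF1 core in Atp5g2 (overlapping matches on both strands) and Atp5g3, and Atp5g1 has no match to these letters.
Atp5e, chr2:174464052-174464351, minus strand: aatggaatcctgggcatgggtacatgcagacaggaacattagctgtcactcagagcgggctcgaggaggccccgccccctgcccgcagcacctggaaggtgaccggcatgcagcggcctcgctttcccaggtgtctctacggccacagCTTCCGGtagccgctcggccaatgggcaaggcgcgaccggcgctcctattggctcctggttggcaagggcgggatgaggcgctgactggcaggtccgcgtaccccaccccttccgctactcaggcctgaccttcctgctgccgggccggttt
Atp5g1, chr11:96075582-96075881, minus strand: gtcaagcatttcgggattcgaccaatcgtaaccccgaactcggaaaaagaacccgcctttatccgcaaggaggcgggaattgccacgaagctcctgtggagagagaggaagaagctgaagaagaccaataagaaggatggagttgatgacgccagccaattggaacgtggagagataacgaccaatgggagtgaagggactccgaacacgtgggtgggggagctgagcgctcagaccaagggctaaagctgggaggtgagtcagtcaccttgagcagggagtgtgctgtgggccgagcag
Atp5g2, chr15:102670998-102671297, minus strand: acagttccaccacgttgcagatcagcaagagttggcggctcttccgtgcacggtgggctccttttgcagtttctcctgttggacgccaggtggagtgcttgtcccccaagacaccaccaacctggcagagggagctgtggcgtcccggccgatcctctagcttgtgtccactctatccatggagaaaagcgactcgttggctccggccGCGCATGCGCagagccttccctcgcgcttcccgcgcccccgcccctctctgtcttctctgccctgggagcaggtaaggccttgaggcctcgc
Atp5g3, chr2:73911277-73911576, minus strand: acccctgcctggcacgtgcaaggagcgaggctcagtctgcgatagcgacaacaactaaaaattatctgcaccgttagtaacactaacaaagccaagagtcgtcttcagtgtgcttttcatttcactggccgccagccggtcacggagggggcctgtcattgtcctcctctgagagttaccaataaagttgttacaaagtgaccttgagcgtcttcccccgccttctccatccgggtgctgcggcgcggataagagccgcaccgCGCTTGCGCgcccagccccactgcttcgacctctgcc

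Levels of different genes were compared on the deposited RPKM scale, reads divided by transcript length and by a library total. Complex V genes had the highest median RPKM in the 2 spleen groups and in the lung controls (201 in TCR, 135 in TCR + TSLP and 50.9 in lung controls), while the medians of complexes V and III were 58.8 and 60.2 in Crlf2-deleted libraries. Atp5e, which encodes the small epsilon subunit of the F1 motor, was highest of all 84 genes in TCR, with 809 and 606 RPKM in its 2 libraries. With TSLP it stood at 194.7 and 175 RPKM, below both TCR libraries, and Atp5b, the catalytic beta subunit, became the highest at 410 and 398 RPKM. Cox4i1, the constitutive isoform of the first nuclear subunit of cytochrome c oxidase, was highest in both lung groups, at 153, 108 and 159 RPKM in controls and 167, 165 and 228 in Crlf2-deleted libraries. The RPKM values of spleen and lung were scaled to library totals that include reads outside the listed genes. They were not tested against each other, since tissue, culture and possibly the library kit differ together.

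The tissue-restricted isoforms were nearly silent. Cox8c, a testis isoform, had 0 reads in all 10 libraries, which allows up to 3 reads in each. Cox8b, of heart and muscle, had 3 reads in 1 Crlf2-deleted library and 0 in the other 9. Cox7b2 had 2 reads in TCR 1 and 0 elsewhere, and Cox4i2 and Ndufa4l2, which are known from lung and from hypoxic cells, had at most 5 and 12 reads. Their constitutive partners were abundant: Cox8a had 240 and 281 normalised reads in TCR, and Cox4i1 had 576 and 614. Normalised reads are CPM (reads scaled to a common library size) after TMM, a scaling that assumes most genes do not change. Cox7a1, the muscle isoform, had 2.7 and 1.7 in TCR against 228 and 216 for Cox7a2. The 5 silent genes, and Cox7a1 in lung, did not pass the filter on low counts, which left 79 members tested in spleen and 78 in lung.

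The 84 genes together took 1.80% and 1.77% of gene reads in TCR and 1.34% and 1.29% with TSLP. The groups did not overlap, and with 2 libraries against 2 the exact permutation test cannot go below p = 0.33 (two-sided), which is the value found. Complex II moved the other way, from 0.0494% and 0.0574% of reads in TCR to 0.0666% and 0.0652% with TSLP. In lung the whole set took 1.28%, 1.28% and 1.16% in controls and 1.34%, 1.25% and 1.41% in Crlf2-deleted libraries, which overlap (exact permutation p = 0.3, two-sided, smallest possible 0.1). By complex, the groups did not overlap for complex II (0.0584% to 0.0648% in controls and 0.0651% to 0.0710% after deletion) or complex IV (0.235% to 0.254% and 0.256% to 0.298%), each at the smallest possible p of 0.1 (exact permutation, two-sided), and overlapped for the other 3. The lowest lung values were those of control 3, the library rich in erythroid reads. Without the epithelial and erythroid marker genes in the total, the lung difference between group means shrank from 0.0951 to 0.0165 percentage points, and the groups then overlapped for complex II (0.0662% to 0.0674% and 0.0665% to 0.0723%) and complex IV (0.259% to 0.274% and 0.261% to 0.299%). Complex V took a smaller part in lung than in spleen, with 0.361% to 0.422% of reads over the 6 lung libraries against 0.565% to 0.706% over the 4 spleen libraries. In bulk libraries such as these, fewer cells of a type and less RNA per cell cannot be told apart.

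**Figure D1:**
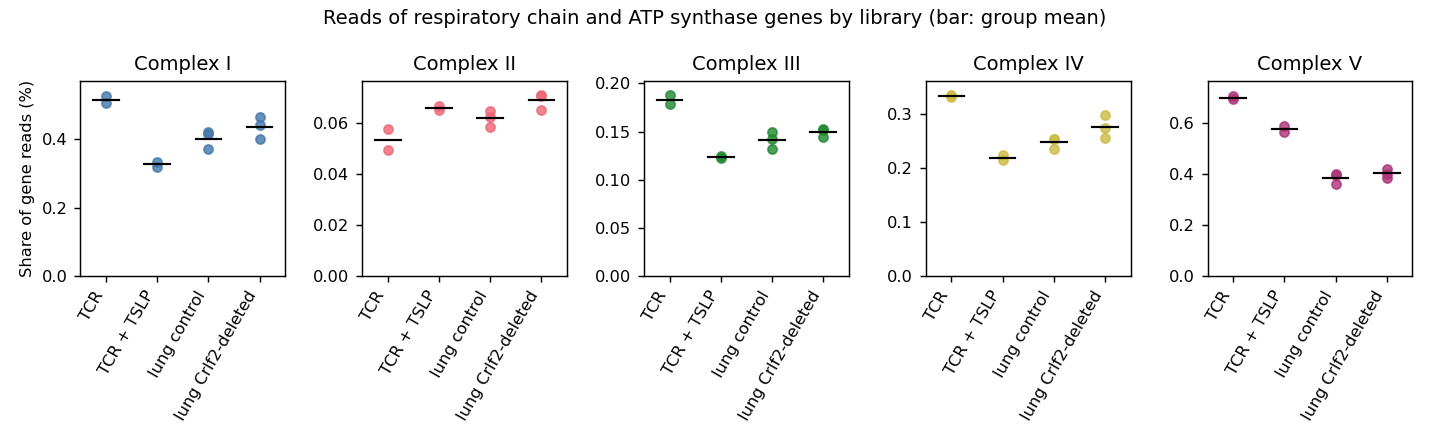
Share of gene reads (percent, vertical axes from 0, each with its own scale) taken by the genes of each complex; 1 point per library in the 4 groups and a bar at the group mean. Complexes I, III, IV and V were lower in both TCR + TSLP libraries than in both TCR libraries, complex II was higher, and in lung complexes II and IV were higher in all Crlf2-deleted libraries than in all controls while the others overlapped.

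With TSLP, 63 of the 79 tested members fell, 2 rose and 14 did not pass (edgeR, adjusted p under 0.05). Over all 13214 genes tested, 23.1% were called lower and 22.7% higher. The members' median log2 fold change was -0.86, against 0.01 over all genes. In 66 members both TSLP libraries lay below both TCR libraries and in 6 both lay above, against 37.3% lower and 38.1% higher over all genes. Without TCR library 2 the members that rose numbered 11 and those that fell 64. Markers of other lymphocytes moved in the same comparison: 4 of 5 B cell markers fell, from a summed 104 to 111 normalised reads in TCR to 69.1 to 69.5 with TSLP, and of 6 CD8 T and NK cell markers, 5 of them tested, 3 fell and 1 rose (summed 76.9 to 83.1, then 40.1 to 41.4). The same counts held with the length adjustment described below, and the part of these cells in the members' changes was not tested. Among the 8 Treg markers Cd3g (log2 -1.01) and Tnfrsf18 (-0.37) fell and Il2ra (0.63) rose. After length adjustment 2 of the 8 were lower, Cd3g (-0.54) and Foxp3 (-0.36, adjusted p = 0.0122, edgeR), and 2 were higher, Il2ra (0.51) and Ctla4 (0.27). Foxp3 had not passed before adjustment (-0.25).

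Complex I, which takes electrons from NADH, had 31 of 36 tested genes lower and 1 higher, with a median of -0.91. Ndufa2, a small matrix-arm subunit, fell most, from 275 and 197.6 normalised reads in TCR to 66.5 and 59.7 with TSLP (log2 -1.91, SE 0.15, adjusted p = 0.000159, edgeR). Ndufb7, a membrane-arm subunit on the intermembrane side, went from 350 and 281 to 103 and 93.4 (log2 -1.68). Both TSLP libraries were far below both TCR libraries for each. The exception was Ndufs1, the largest subunit of the matrix arm and the bearer of several iron-sulphur clusters, which rose from 50.7 and 66.9 to 96.8 and 93.7 (log2 0.70, SE 0.13, adjusted p = 0.00400, edgeR). Ndufs1 also has the longest transcript row of the complex, 2927 bp, while Ndufa2 has 602 bp.

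Complex II oxidises succinate and consists of a catalytic pair of subunits on a membrane anchor. Sdhb, its iron-sulphur subunit and the shortest row of the complex at 1073 bp, was the 1 gene of 4 that fell, from 197.6 and 207 normalised reads to 157 and 150 (log2 -0.40, SE 0.08). Sdha, the flavoprotein that binds succinate, had 192 and 223 in TCR and 256 and 247 with TSLP (log2 0.27, adjusted p = 0.0504, edgeR). Its TSLP libraries lay above its TCR libraries without passing the threshold. The membrane anchors Sdhc and Sdhd had log2 values of 0.32 and 0.25 and did not pass either.

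Complex III, which hands electrons from ubiquinol to cytochrome c, had 6 of 8 genes lower and 1 higher. Its small subunits Uqcr11, Uqcr10, Uqcrq and Uqcrh had log2 values of -1.47, -1.45, -1.34 and -1.24. Uqcr11 went from 267 and 211 normalised reads to 89.99 and 82.7. Uqcrc2, a large core protein on the matrix side, rose from 84.7 and 112 to 158 and 160 (log2 0.69, SE 0.13, adjusted p = 0.00385, edgeR). Its partner Uqcrc1 fell (log2 -0.35, adjusted p = 0.0125, edgeR), and the Rieske iron-sulphur protein Uqcrfs1 stood at -0.03 and did not pass.

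Complex IV had 13 of 14 tested genes lower and 0 higher, with a median of -0.86, and the 1 that did not pass was the muscle isoform Cox6a2, with 19 to 24 reads in each spleen library. Cox4i1 went from 576 and 614 normalised reads to 329 and 304 (log2 -0.91, SE 0.09). Cox8a fell least, from 240 and 281 to 194.8 and 205 (log2 -0.38, adjusted p = 0.016, edgeR). The largest fall was that of the scarce Cox7a1, from 2.7 and 1.7 to 0.6 and 0.9 (log2 -1.51, SE 0.35), which carries the widest error of the called genes of the complex.

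ATP synthase had 12 of 17 genes lower and 0 higher. Atp5e fell from 956 and 639 normalised reads to 169 and 151, a 4.99-fold drop (log2 -2.32, SE 0.18, adjusted p = 0.00016, edgeR) and the largest of all 79 members. The small membrane subunits Atp5k and Atp5j2 followed with log2 -1.72 and -1.66. The large catalytic subunits did not pass: Atp5b had 1387 and 1572 in TCR against 1614 and 1552 with TSLP (log2 0.10), and Atp5a1 had 832 and 949 against 998 and 946 (log2 0.13). The order of these 3 fold changes was that of their transcript lengths, 414 bp for Atp5e, 1879 bp for Atp5b and 2431 bp for Atp5a1.

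**Figure D2:**
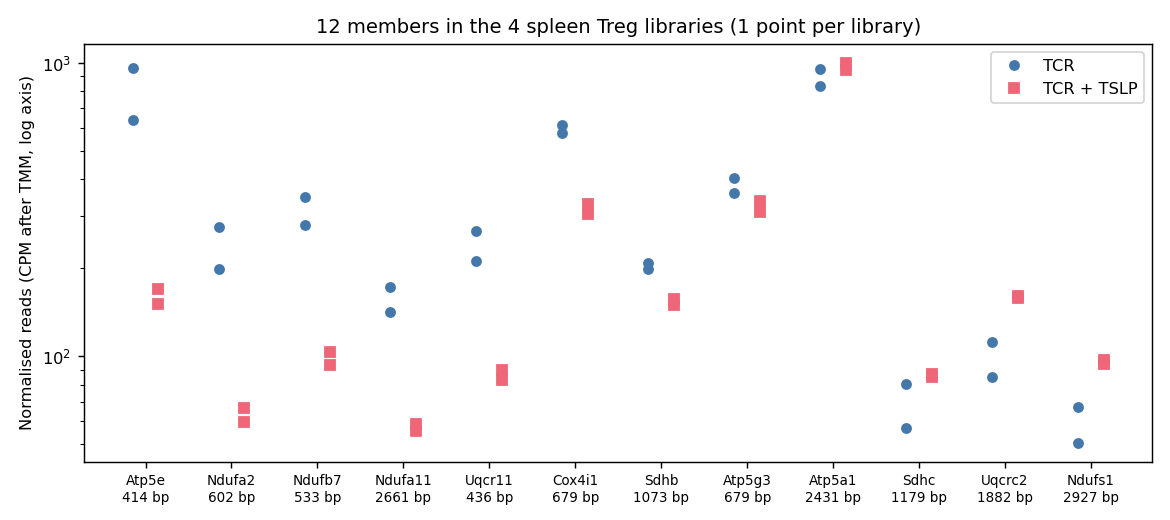
Normalised reads (CPM after TMM, log axis) of 12 members in each of the 2 TCR and 2 TCR + TSLP libraries, with the row length under each name. Atp5e, Ndufa2, Ndufb7, Ndufa11 and Uqcr11 are separated between groups with TSLP below, whereas Uqcrc2 and Ndufs1 lie above and Atp5a1 overlaps.

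Short protein-coding mRNAs in general were lower with TSLP. Among rows under 500 bp the 14 members had a median log2 of -1.41 and the 104 other protein-coding rows -1.37, of which 92.3% were called lower. From 500 to under 600 bp the medians were -0.94 for 19 members and -1.01 for 100 others (81% called lower), and from 600 to under 800 bp they were -0.72 for 15 and -0.80 for 270 (72.2%). At 1000 to under 1500 bp they were -0.31 for 12 members and -0.35 for 1246 others (44.5%), and at 2000 to under 3000 bp 0.13 for 5 and 0.08 for 2932 (16.4%). The gap between members and others was wider at 800 to under 1000 bp (-0.94 for 5, -0.59 for 376, of which 58.5% were called lower) and at 1500 to under 2000 bp (-0.43 for 9, -0.14 for 1518, 27%). Of the 79 members 42 lay below the median of their own length class and 37 above, with a median difference of -0.03. The 2 TCR libraries also differed from each other by length: the median log2 difference of library 1 from library 2 was 0.09 for members under 600 bp and -0.11 for those of 1500 bp or more. Between the 2 TSLP libraries these medians were 0.11 and 0.07. Over all genes tested the medians were -0.02 in TCR and 0.0007 with TSLP. Where in the path from cell to library the length trend arose was not tested.

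**Figure D3:**
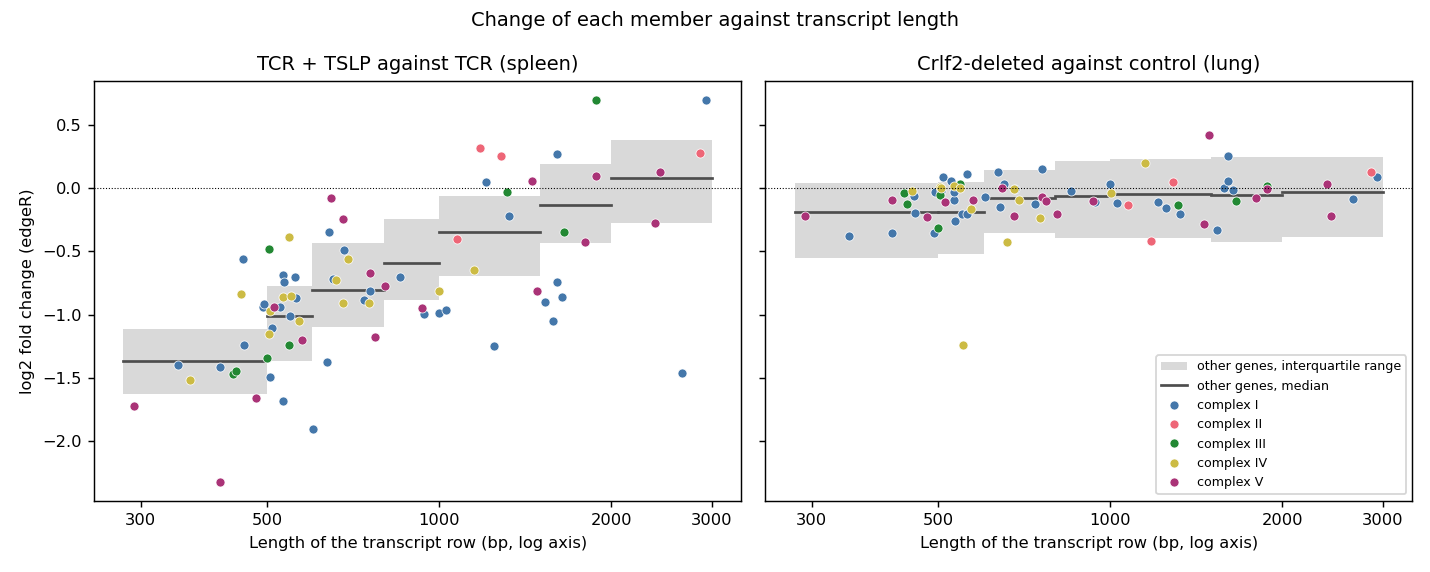
log2 fold change of each member (points, coloured by complex) against the length of its transcript row (bp, log axis), for TSLP in spleen and for Crlf2 deletion in lung; grey bands and lines give the interquartile range and the median of the other protein-coding genes in each length class. In spleen the members follow the rise of the other genes from -1.37 under 500 bp to 0.08 at 2000 to under 3000 bp. In lung the medians of these classes are -0.19 and -0.03 for the other genes and -0.20 and 0.03 for the members.

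A fit in which a smooth trend on row length was removed from each library compared each gene with genes of like length. In it 30 members fell, 12 rose and 37 did not pass, with a median of -0.14 against 0.05 over all genes, of which 18.1% were called lower and 23.2% higher. The trend was not fully removed for the shortest rows. Under 500 bp the median was -0.33 for the 14 members and -0.31 for the 104 other protein-coding rows. Of those others 32.7% were called lower and 7.69% higher. Of the 63 genes lower before, 30 stayed lower, 30 no longer passed and 3 turned to higher. The 2 higher before stayed so, and 7 of the 14 that had not passed were now higher. By complex the counts of lower and higher were 14 and 5 of 36 in complex I, 0 and 2 of 4 in complex II, 4 and 2 of 8 in complex III, 3 and 1 of 14 in complex IV, and 9 and 2 of 17 in complex V. The counts rest on the libraries and on the length used. Leaving out 1 library leaves the spread to the other group alone. Without TSLP library 1 there were 15 lower and 7 higher, without TSLP library 2 there were 10 and 7, and without TCR library 2 there were 35 and 25. With the median length of the coding GENCODE transcripts in place of the row's length, 50 members were lower and 7 higher (median -0.45, with 19.4% of all genes lower and 25% higher). With trends on both row length and GC content removed, 27 were lower and 13 higher (median -0.04, with 16.5% of all genes lower and 22.5% higher).

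The 10 members with the smallest p in the length-adjusted fit were 8 genes of complex I, Atp5e and Uqcrc2, and of these only Uqcrc2 was higher. Ndufa11, a membrane-arm subunit, had 172 and 142 normalised reads in TCR and 58.5 and 55.4 with TSLP, and a length-adjusted log2 of -1.49 (SE 0.11, adjusted p = 0.000527, edgeR). Its row is 2661 bp long, whereas its coding GENCODE transcripts span 493 to 918 bp. With the GENCODE length its value was -0.96. Atp5e kept a length-adjusted value of -1.21 (SE 0.13) and Ndufa2 one of -1.05 (SE 0.13). In the length class of Atp5e, under 500 bp, the other protein-coding rows had a median of -0.31 in this fit. Ndufa13, also known as Grim-19, went from 295 and 296 to 132 and 117 and had -0.90 (SE 0.08). Ndufv3, Ndufb7, Ndufs4, Ndufv2 and Ndufv1 had -0.86, -0.73, -0.70, -0.69 and -0.56. Ndufv1 and Ndufv2 form, with Ndufs1, the module that oxidises NADH, and Ndufv3 attaches to it. Reads of the 487 bp row of Ndufv3 equalled 90.2% and 86.1% of those of its 1579 bp row in TCR, and 78.9% and 78.4% with TSLP. In lung this ratio was 84.4% to 94.4%. The length class of Ndufv3 is therefore uncertain. Its log2 without adjustment was -1.05, whereas other protein-coding rows under 500 bp had a median of -1.37 in that fit. All members named here as lower were also lower with the GENCODE length and with trends on length and GC content removed. Leaving out any 1 library kept all their length-adjusted calls except that of Ndufv1 without TSLP library 2 (adjusted p = 0.0525, edgeR). In each of these fits 1 group has a single library, which is assumed to vary like the other group, so they show what that library contributes and little about the error.

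On the other side, Uqcrc2 had a length-adjusted log2 of 0.81 (SE 0.12, adjusted p = 0.00267, edgeR) and Ndufs1 one of 0.65 (SE 0.13). The complex II anchors rose in this fit, Sdhc from 57.0 and 80.5 normalised reads to 86.9 and 84.7 (0.71, SE 0.14) and Sdhd from 85.9 and 113 to 121 and 116 (0.58, SE 0.11). These 4 genes were also higher with the GENCODE length. Atp5g2 (0.71), Cox8a (0.55), Uqcrb (0.51) and Atp5g3 (0.51) were higher in the fit on row length. With the GENCODE length they stood at 0.27, 0.10, 0.03 and 0.08 and did not pass, so their calls depend on which length is used. Among members with a promoter window, the NRF1 core was in 8 of the 28 that were lower in the length-adjusted fit, 4 of the 7 that were higher and 8 of the 32 that did not pass. The ETS motif was in 8, 2 and 6 of these, and the YY1 motif in 5, 0 and 3. Uqcrc2, Ndufs1, Sdhc and Uqcrb had no window and are not in these counts.

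**Figure D4:**
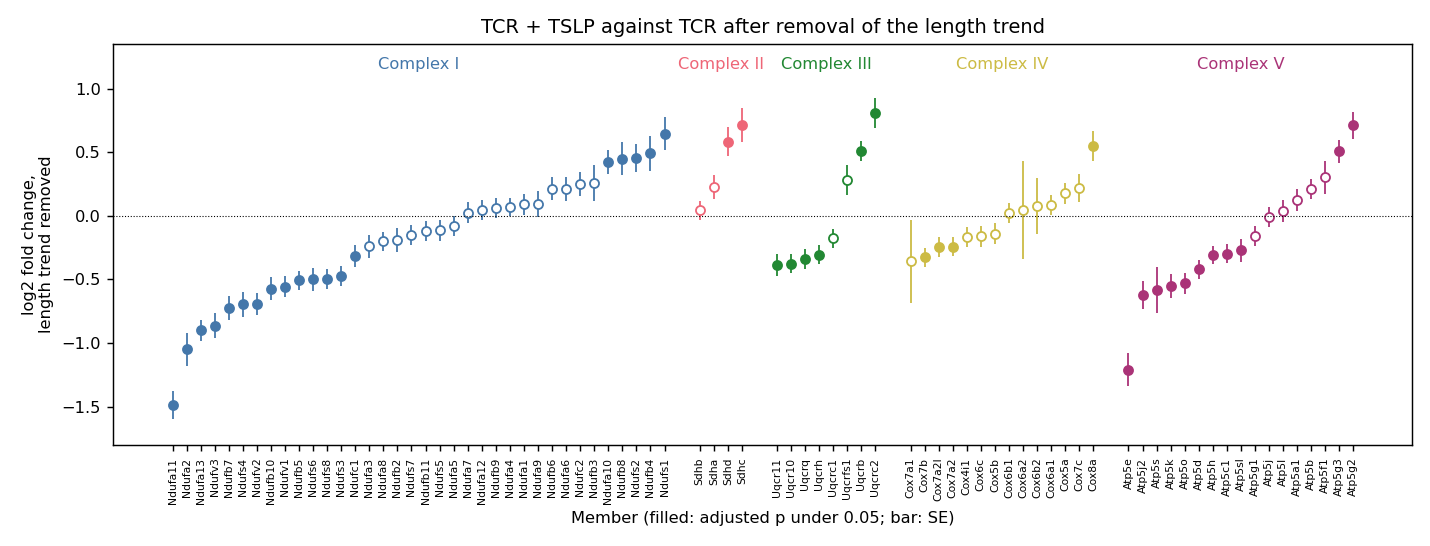
Length-adjusted log2 fold change with TSLP (bars: SE) of the 79 tested members, ordered by value within each complex; filled points passed at an adjusted p under 0.05. Members lie on both sides of 0, from -1.49 for Ndufa11 to 0.81 for Uqcrc2.

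The c ring of ATP synthase is built from 1 mature protein encoded by 3 genes, Atp5g1, Atp5g2 and Atp5g3, which differ in their targeting peptides and in control. Of their summed RPKM, Atp5g3 took 43.3% and 44.1% in TCR and 46.0% and 44.7% with TSLP. In lung it took 15.7%, 22.5% and 18.7% in controls and 16.5%, 17.7% and 16.9% in Crlf2-deleted libraries. Atp5g2 led in lung, with 51.2% to 59.8% over the 6 libraries, against 30.4% to 37.4% over the 4 spleen libraries. The ranges of spleen and lung did not overlap for either gene, and no test was made because tissue, culture and possibly kit differ together. Within spleen, the share of Atp5g1 was 26.4% and 22.8% in TCR and 17.3% and 17.8% with TSLP, without overlap. Its normalised reads fell from 261 and 248 to 151 and 146 (log2 -0.78, SE 0.08, adjusted p = 0.000381, edgeR), with a length-adjusted value of -0.16 that did not pass. Atp5g2 and Atp5g3 did not pass in the fit without length adjustment (log2 -0.08 and -0.24).

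**Figure D5:**
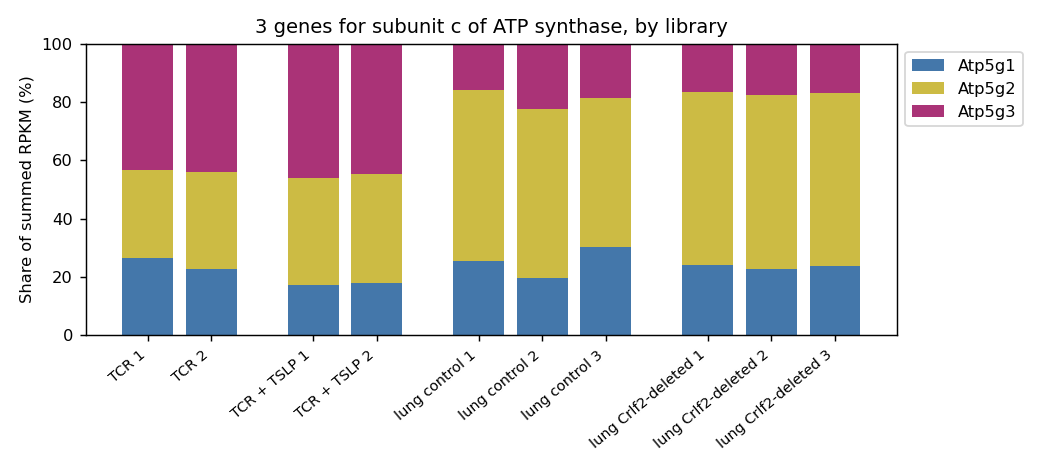
Share of the summed RPKM of the 3 c-subunit genes (percent, stacked bars from 0 to 100) in each of the 10 libraries. Atp5g3 makes up 43.3% to 46.0% in spleen and 15.7% to 22.5% in lung, where Atp5g2 is the largest.

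Genes that assemble, supply or control the chain are read against the shares over all genes, 23.1% lower and 22.7% higher with TSLP, or 18.1% and 23.2% after length adjustment. Of 16 complex I assembly factors 6 fell and 1 rose (median -0.22), and of 21 complex IV assembly factors 11 fell and 2 rose (median -0.46). After length adjustment these became 5 and 2, and 7 and 5. Cmc2, an assembly factor of cytochrome c oxidase, was among the lower in both fits, from 70.9 and 67.5 normalised reads to 26.9 and 24.9 (log2 -1.42, length-adjusted -1.17). Cox17, a copper chaperone for the same enzyme, had -1.24 and, length-adjusted, -0.16, which did not pass. Of 10 electron carriers and partners 3 fell and 1 rose, or 2 and 6 after adjustment. Etfb, a subunit of the flavoprotein that feeds electrons from fatty acid oxidation into ubiquinone, fell in both (-1.39 and -0.85). Of 5 complex III assembly factors 1 fell, and of 5 for complexes II and V also 1, and none of either rose. Coenzyme Q synthesis had 3 of 11 genes in each direction, and 2 lower and 5 higher after adjustment.

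The tricarboxylic acid cycle, which supplies NADH and succinate, had 1 of 18 genes lower and 7 higher with TSLP, and 1 and 8 after length adjustment. Its median row length was 2261 bp. Suclg2, a subunit of succinyl-CoA ligase, rose from 26.7 and 35.2 normalised reads to 46.8 and 47.5 (log2 0.61, SE 0.13, adjusted p = 0.00776, edgeR). Of 10 regulators of mitochondrial biogenesis 1 fell and 5 rose, and after adjustment 1 and 4. Myc rose from 159 and 210 to 335 and 347 (0.89, length-adjusted 0.90), and Gabpa, which encodes the DNA-binding subunit of GABP, had 0.79 and 0.64. Of 11 genes for mitochondrial DNA maintenance and expression 4 fell and 2 rose, or 2 and 2 after adjustment. Ssbp1, a single-strand DNA-binding protein of mitochondrial DNA, was lower in both fits (-0.64 and -0.55), while Slirp, at 419 bp, was lower only before adjustment (-1.23, then -0.14).

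In lung Tregs, none of the 78 tested members differed detectably between Crlf2-deleted and control libraries. None passed in edgeR (lowest adjusted p = 0.207, 3 at an unadjusted p under 0.05) or in DESeq2, where over all 12717 genes edgeR called 1.01% lower and 0.771% higher. The members' median was -0.08, against -0.04 over all genes. The 95% interval of the fold change lay within 2-fold in either direction for 75 of the 78, and within 1.5-fold for 63. The 3 outside 2-fold, Atp5s, Cox6a2 and Cox6b2, had few reads. With lung control 3 left out, again 0 members were called and the median was -0.05. In 8 members all Crlf2-deleted libraries lay below all controls and in none above, against 11.6% and 10.5% of all genes.

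Ndufa4, Ndufa3 and Ndufs4 had the lowest unadjusted p. Ndufa4 had 159, 146 and 145 normalised reads in controls and 123, 108 and 121 after deletion, without overlap (log2 -0.35, SE 0.12). Ndufa3, a small membrane-arm subunit, had 162, 150 and 143 against 127, 102 and 120 (log2 -0.38, SE 0.14). Ndufs4, a subunit whose loss is known to cause Leigh-like disease in mice, had 80.1, 97.8 and 85.2 against 74.7, 67.0 and 67.0 (log2 -0.33, SE 0.14). On the deposited RPKM scale (limma) the same genes stood at 0.07, 0.04 and 0.09, and their direction therefore differed between the scales. The members' median also turned positive on that scale and lay above the values of these genes. Ndufa4 and Ndufa3 have rows under 500 bp, where the lung medians were -0.20 for 13 members and -0.19 for 112 other protein-coding rows. At 2000 to under 3000 bp the other rows stood at -0.03. With the trend on row length removed, 0 of the 78 members had an unadjusted p under 0.05, and the lowest adjusted p was 0.461 (edgeR). Genes that moved with TSLP had these lung values: Atp5e -0.09, Ndufa2 -0.07, Ndufs1 0.09 and Uqcrc2 0.02, each with a 95% interval within 1.5-fold. Of the 105 tested genes in the assembly, carrier, coenzyme Q, tricarboxylic acid, mitochondrial DNA and biogenesis lists, none passed in lung by edgeR (12 at an unadjusted p under 0.05), and DESeq2 called 1. That gene was Myc, with 128, 84.2 and 127 normalised reads in controls and 59.0, 64.8 and 49.3 after deletion, without overlap (log2 -0.99, SE 0.20, adjusted p = 0.0506 in edgeR and 0.00035 in DESeq2).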

How the data were processed

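Read counts per RefSeq transcript row were deposited as whole numbers with RPKM values beside them, 1 library per file, per the file headers. Named without roles in the submitters' processing notes are the mm10 build, edgeR, bedtools 2.25.0, SAMtools 0.1.8, TopHat2 2.2.1 and Bowtie2 2.2.6. The RPKM was computed by the authors from these reads, the row length and a larger library total. Per the labels' protocols, TCR-stimulated libraries used a stranded ribosomal-depletion kit and 50 bp single-end reads. Not given in the sources used here are the lung kit and, for every library, the counter, strand rule and handling of multimapping. Members with processed pseudogenes or overlapping genes are uncertain.

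Each symbol was represented by its row with the most reads. Counts were tested within each comparison by the quasi-likelihood test of edgeR 4.0.16 under R 4.3.3 (TMM, filterByExpr with a minimum count of 10, robust, two-sided), with Benjamini-Hochberg adjustment over all genes tested and a threshold of 0.05. The length-adjusted fit used a loess trend (span 0.3) of log counts on row length as an offset per library. Alternatives were DESeq2 1.42.0, limma 3.58.1 on log2(RPKM + 1), other scalings, no filter, summed rows, all groups in 1 fit, length and GC trends, the replicate number as a block and leaving out each library. The GENCODE M21 length, the crossed block, leave-one-out of the length-adjusted fit and totals without marker genes were added after the data were seen. In simulated counts the TSLP design gave back 79 of 100 genes set to a 2-fold change and 98 of 100 set to 4-fold (13065 genes simulated, with 11 of 188 calls false). The lung design gave 24 and 67 of 100 (12465 genes, with 6 of 97 calls false). With a simulated length trend in the TSLP design, the unadjusted fit made 2852 false calls of 3038 and the length-adjusted fit 11 of 191 (13031 genes). That trend was a straight line, log2 0.3 per doubling of length, alike in the simulated TSLP libraries. The measured trend need not have this shape, so these counts do not show how well it was removed. In the measured data other protein-coding rows under 500 bp kept a median log2 of -0.31 after adjustment.

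Members and gene lists were chosen with earlier results of these data known. The text names the deleted gene, the members with the largest changes, levels and lengths in each complex, tissue isoforms, the 10 smallest p after length adjustment and the 2 smallest p of each other list. Further members are named to describe a complex, a choice made with their values in view, as it was for Myc in lung. 1 gene that the rule takes is not reported here. Replicate libraries all differed beyond sampling noise (chi-square per degree of freedom of 6.09 to 172). The numbers were not taken as pairs. Deviations of libraries with the same number had r = -0.12 in spleen and -0.15 to 0.08 in lung. With 2 libraries per group, crossed numbers in spleen had to give the opposite value, 0.12, so this check cannot decide on pairing there. Intervals rest on the spread between the libraries of a comparison, and the limit of 3 reads covers counting error only.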

Additional observations from a re-analysis of the deposited data

How the results depend on the processing

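The count of members lower with TSLP, 63, was 46 to 65 under the alternatives other than removal of the trend on row length (54 to 68 leaving out 1 library), 30 with that trend removed and 27 with trends on length and GC content removed. The count of members higher, 2, became 8 with library totals alone, 12 with the length trend removed, 13 with length and GC trends removed, 7 with the GENCODE length, 8 with limma on RPKM and 2 to 11 leaving out 1 library, with 11 without TCR library 2. The median of -0.86 became -0.63 with library totals alone (all genes 0.24), -0.14 with the length trend removed, -0.0399 with length and GC trends removed, -0.45 with the GENCODE length, -0.48 with limma on RPKM (all genes 0.20) and -0.94 to -0.80 leaving out 1 library. With the replicate number as a block 63 fell and 3 rose in spleen, and 0 changed in lung. With crossed numbers as the block 65 fell and 6 rose.

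In lung 0 members were called under every alternative run. The median, -0.08, was positive with library totals alone (0.092), the length trend removed (0.0233), length and GC trends removed (0.0069) and limma on RPKM (0.33), and was -0.11 to -0.01 leaving out 1 library. On RPKM Ndufa4, Ndufa3 and Ndufs4 stood at 0.0707, 0.0425 and 0.0867.

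Of the 69 members below 0 with TSLP, 25 stood above 0 with the length trend removed, 25 with length and GC trends removed (19 of the 25 called lower before in each case) and 8 with the GENCODE length (4 called lower before). The genes named by rule also include genes that are not members, among them Atpif1, Coq7, Uqcc2 and Crlf2. In spleen Crlf2 was lower with TSLP before adjustment (log2 -0.43, adjusted p = 0.00799, edgeR). Among the genes named by rule, those that turned from below to above 0 with the length trend removed were Atp5g2 0.71, Atp5g3 0.51, Atpif1 0.10, Coq7 0.0166, Cox6a1 0.0879, Cox6a2 0.0444, Cox6b1 0.0208, Cox6b2 0.0748, Cox8a 0.55, Ndufa4 0.069 and Sdhb 0.0427. With length and GC trends removed they were Atp5g2 0.84, Atp5g3 0.55, Atpif1 0.13, Coq7 0.0386, Cox6a1 0.27, Cox6a2 0.0645, Cox6b1 0.0598, Cox6b2 0.19, Cox8a 0.73, Crlf2 0.12, Sdhb 0.16 and Uqcc2 0.0015. With the GENCODE length they were Atp5g2 0.27, Atp5g3 0.0847 and Cox8a 0.10. Atp5g2 was also positive with library totals alone (0.15), limma on RPKM (0.30) and without TCR library 2 (0.0823, with -0.203 without TCR library 1), and Atp5g3 with limma on RPKM (0.13). The cause of these changes was not tested beyond the length correction itself. Lung control 2 was the shallowest library, with 1439672 gene reads, and the largest chi-square per degree of freedom between lung replicates, 172, was that of controls 1 and 3. Leaving out 1 spleen library leaves a single library in its group, which is assumed to vary like the other group.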

Other observations

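Within cytochrome c oxidase, Cox8a took 7.65% and 8.83% of the summed RPKM of the complex IV genes in TCR, 10.8% and 11.98% with TSLP, and 14.1% to 16.9% over the 6 lung libraries. The groups of spleen did not overlap, and no test was made. Among the remaining pathway genes the rule named, Lyrm2, a complex I assembly factor, fell with TSLP (log2 -0.67, length-adjusted -0.37), as did Ndufaf2 (-1.05, length-adjusted -0.30). Uqcc2, an assembly factor of complex III, and Sdhaf1, one of complex II, stood at -1.22 and -0.60 and did not pass after length adjustment. The same held for Atpif1, the inhibitor of ATP synthase (-0.84), and for Coq7, a hydroxylase of coenzyme Q synthesis (-0.55). Pdss2, which makes the side chain of coenzyme Q, rose from 3.56 and 4.55 normalised reads to 6.93 and 7.42 (log2 0.82, length-adjusted 0.96, adjusted p = 0.00472, edgeR).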
